A study of Homo sapiens with 18 samples.

Results

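Transcripts of 10 members of the BCL2 family of death regulators were followed in prostate cancer cell lines. They were taken by gene symbol from a deposited table of 63241 genes, and all 10 symbols matched. They comprise 4 anti-apoptotic members (BCL2, BCL2L1, BCL2L2 and MCL1) and 6 pro-apoptotic members (BAK1, BID, BCL2L11, BMF, HRK and PMAIP1). Poly(A) RNA was sequenced from 18 libraries in 6 groups of 3. LNCaP, a line that responds to androgen and was grown from a metastasis in a lymph node, had no drug, genistein at 10 or 20 µM, or baicalein at 10 or 20 µM for 24 h. PC-3, a line that grows without androgen and came from bone, had no drug. The genotype was labelled wild type throughout. The sample names say untreated for the controls, but the treatment protocol speaks of a DMSO vehicle. Both drugs are plant flavonoids and isomers of each other, and the study's title names them as radiosensitizers. Separate cultures are not stated, so the p-values reflect only differences among these libraries, and those may be technical.

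Anti-apoptotic members of the family hold the effectors of mitochondrial permeabilization in check by binding the BH3 helix of their pro-apoptotic relatives. The effectors BAK1 and BAX form pores in the outer mitochondrial membrane, and BH3-only proteins either activate these effectors or occupy the groove of the anti-apoptotic members. PMAIP1 (NOXA) pairs mainly with MCL1, and BCL2L11 (BIM) binds all of the anti-apoptotic members studied here.

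The coding sequence of the BH3 core is shown for each member, because pro-apoptotic members bind anti-apoptotic ones through this helix. The anti-apoptotic members receive it in their groove, and their own core is shown beside it. Each stretch is 5′ to 3′ on the coding strand, from GENCODE 29 transcripts on GRCh38. Capitals mark 6 codons that fit 1 pattern: a leucine or methionine codon, any 3 codons, a glycine or alanine codon and an aspartate codon. In lower case stand 3 codons on each side.
BCL2: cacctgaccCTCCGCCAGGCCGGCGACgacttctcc
BCL2L1: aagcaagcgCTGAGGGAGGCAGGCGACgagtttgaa
BCL2L2: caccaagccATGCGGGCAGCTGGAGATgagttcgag
MCL1: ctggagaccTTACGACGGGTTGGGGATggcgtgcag
BAK1: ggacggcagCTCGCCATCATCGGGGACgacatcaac
BID: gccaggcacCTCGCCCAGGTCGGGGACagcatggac
BCL2L11: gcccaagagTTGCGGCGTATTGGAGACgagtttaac
BMF: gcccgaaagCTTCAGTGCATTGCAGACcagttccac
HRK: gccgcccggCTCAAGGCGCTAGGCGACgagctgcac
PMAIP1: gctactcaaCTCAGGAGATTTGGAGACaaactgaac
The pattern matched once in each coding sequence. On the minus strand the core of BCL2 lay at chr18:63318361-63318378, of BCL2L1 at chr20:31721934-31721951, of MCL1 at chr1:150578877-150578894 and of HRK at chr12:116881182-116881199, all in exon 1. Also on the minus strand lay those of BAK1 at chr6:33575399-33575416 and BID at chr22:17739427-17739444, both in exon 4, and of BMF at chr15:40104207-40104224 in exon 3. On the plus strand lay those of BCL2L2 at chr14:23307903-23307920 in exon 3, BCL2L11 at chr2:111150103-111150120 in exon 4 and PMAIP1 at chr18:59902673-59902690 in exon 2.

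HRK, PMAIP1 and BMF had the smallest adjusted p of the members with baicalein at 20 µM, so their promoters are shown, each 300 bases from 250 before to 50 after the RefSeq start (GRCh38.p14), 5′ to 3′. Capitals mark matches to 5 searched motifs.
HRK: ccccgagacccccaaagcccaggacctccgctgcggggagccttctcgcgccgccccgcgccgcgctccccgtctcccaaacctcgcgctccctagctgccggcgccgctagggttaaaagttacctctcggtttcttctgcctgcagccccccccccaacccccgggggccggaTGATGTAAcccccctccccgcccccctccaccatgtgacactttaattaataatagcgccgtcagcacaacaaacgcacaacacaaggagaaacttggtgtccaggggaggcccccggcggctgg
PMAIP1: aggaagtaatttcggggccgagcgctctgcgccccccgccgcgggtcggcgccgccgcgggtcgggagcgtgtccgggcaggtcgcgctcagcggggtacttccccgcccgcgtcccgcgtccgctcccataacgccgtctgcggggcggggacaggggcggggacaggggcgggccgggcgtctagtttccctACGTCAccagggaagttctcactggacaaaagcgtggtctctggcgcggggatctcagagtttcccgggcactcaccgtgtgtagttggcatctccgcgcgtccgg
BMF: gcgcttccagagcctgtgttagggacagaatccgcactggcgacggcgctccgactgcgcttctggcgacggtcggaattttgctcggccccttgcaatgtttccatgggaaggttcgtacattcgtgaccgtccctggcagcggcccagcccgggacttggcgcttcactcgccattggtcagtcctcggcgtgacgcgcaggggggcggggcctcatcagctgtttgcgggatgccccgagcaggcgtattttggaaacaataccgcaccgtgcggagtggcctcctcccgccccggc
The windows lie at chr12:116881392-116881691 on the minus strand (HRK), chr18:59899746-59900045 on the plus strand (PMAIP1) and chr15:40108830-40109129 on the minus strand (BMF). Both strands were searched for TGACGT (ATF and CREB factors), TGATGNAA (ATF4 with C/EBP factors), GTAAACA (FOXO factors), TGANTCA (AP-1) and CACGTG (E-box), and no matches overlapped. HRK held TGATGTAA from position -75, a motif present in 3.62% of 35116 RefSeq windows of this length. PMAIP1 held ACGTCA, the reverse complement of TGACGT, from position -56, and 7.98% of windows held that motif. The BMF window held none of the 5. Windows were found for 8 members, and among the rest BCL2L11 held GTAAACA (3.42% of windows) and BID held CACGTG from 2 of its start sites (7.26% of windows).

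Library totals ran from 10013567 to 18445711 counts. Levels below are CPM, counts scaled to library size with TMM factors over all 18 libraries. Mitochondrially encoded genes took 10.5% to 14.5% of counts with baicalein at 20 µM, against 4.65% to 5.36% in untreated LNCaP. KLK3, which encodes the prostate-specific antigen and marks LNCaP, had 173 ± 61.9 CPM with baicalein at 20 µM and 702 ± 27.1 CPM with genistein at 20 µM, against 1492 ± 135 CPM in untreated LNCaP (SD, n = 3), and 1.67 ± 0.612 CPM in PC-3. KLK2, a related marker, had 6.86 ± 1.04 CPM with baicalein at 20 µM and 27.2 ± 1.35 CPM with genistein at 20 µM, against 67.9 ± 3.51 CPM in untreated LNCaP. At 20 µM 7 of 7 listed LNCaP markers were called lower with baicalein and 6 of 7 with genistein. Of all genes, 27.8% were called lower with baicalein and 8.12% with genistein. The exception with genistein was FOLH1, which encodes PSMA, with 912 ± 35.0 CPM with genistein at 20 µM, against 876 ± 30.8 CPM in untreated LNCaP. The 7 listed PC-3 markers summed to 24.99 to 26.5 CPM with baicalein at 20 µM and 17.8 to 19.95 CPM with genistein at 20 µM, against 8.10 to 9.60 CPM in untreated LNCaP and 5226 to 6084 CPM in PC-3. In LNCaP 3 of them passed the filter (VIM, ANXA1 and LGALS1), and all 3 were called higher with each drug at 20 µM. CAV1, CD44, S100A4 and TGFBI did not pass. The filter used all 15 LNCaP libraries, so a marker could pass only through treated groups where it is high. The count of 3 is therefore no support for a change in these markers as a set. ANXA1 was low, at 3.47 ± 0.931 CPM with baicalein and 3.47 ± 0.582 CPM with genistein at 20 µM, against 1.68 ± 0.433 CPM in untreated LNCaP. The share of all genes called higher was 29.4% with baicalein and 8.31% with genistein. KLK3, KLK2 and FOLH1 were chosen after their values were seen. The part of these markers in the results was not tested. In bulk RNA, fewer cells of a kind and less RNA per cell cannot be told apart.

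Untreated LNCaP cells carried the members at unequal levels. Per kb of exons, MCL1 had 47.7 ± 6.66 CPM, BCL2L1 25.00 ± 6.80 CPM, PMAIP1 16.3 ± 5.32 CPM and BAK1 9.92 ± 0.626 CPM (SD, n = 3). BCL2L1 and PMAIP1 lay within each other's spread. BMF, BCL2L11 and BCL2L2 followed at means of 4.84, 3.65 and 3.51 CPM per kb, also not separated. BID had 1.97 ± 0.188 CPM per kb, and HRK and BCL2 were lowest at 0.773 ± 0.0927 and 0.646 ± 0.0776 CPM per kb. In PC-3 the order began with PMAIP1 at 111 ± 16.8, BCL2L1 at 81.1 ± 6.16, MCL1 at 57.5 ± 33.4 and BAK1 at 47.8 ± 4.12 CPM per kb, and MCL1 was not separated from its neighbours.

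**Figure D1:**
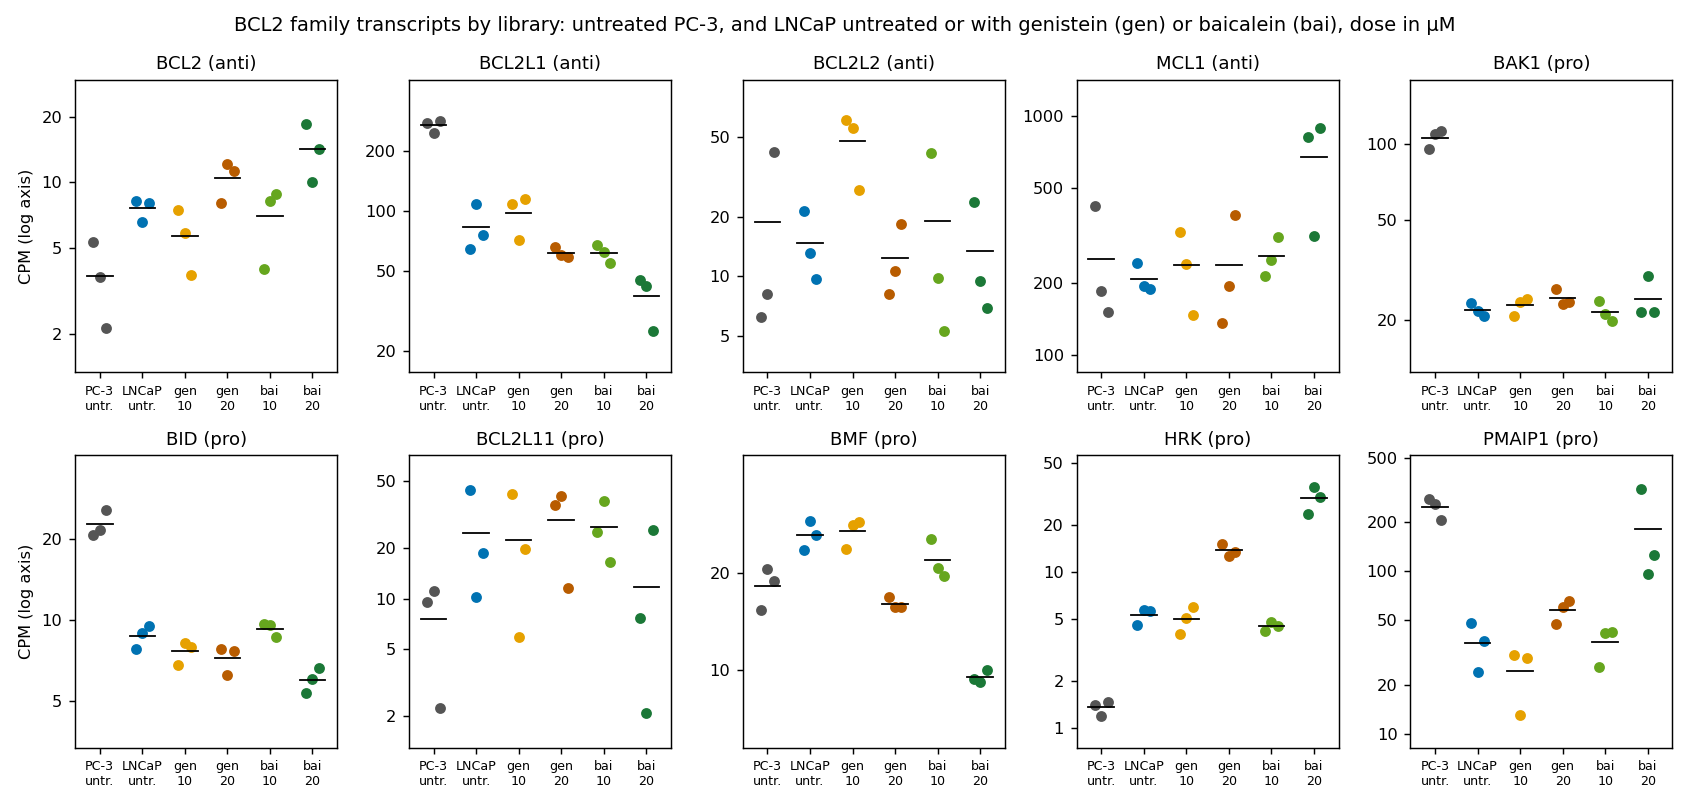
CPM of each member in every library on log axes, with PC-3 at the left of each panel; points are libraries and black lines group means. HRK is highest and BMF lowest in the 3 libraries with baicalein at 20 µM, while BCL2L11 and BCL2L2 scatter within groups.

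At 10 µM no member passed the test with either drug. In edgeR's quasi-likelihood test, adjusted by Benjamini-Hochberg over 16985 genes and called at an adjusted p under 0.05, genistein changed 0 of 10 members, beside 0.112% of all genes (0.0353% higher and 0.0765% lower). Baicalein changed 0 of 10, beside 0.4% (0.0883% higher and 0.312% lower). DESeq2 called 0 members with each drug. Unadjusted p fell under 0.05 for 1 member with genistein and for 0 with baicalein, beside 1458 and 1907 of 16985 genes. The 1 was BCL2L2, an anti-apoptotic member also called BCL-W, with 60.9, 56.1 and 27.3 CPM with genistein at 10 µM, against 21.2, 13.2 and 9.71 CPM in untreated cells. The groups did not overlap, and the log2 fold change was 1.73 ± 0.69 (adjusted p 0.524). The other log2 fold changes with genistein were BCL2 -0.40, BCL2L1 0.27, MCL1 0.21, BAK1 0.09, BID -0.16, BCL2L11 -0.12, BMF 0.07, HRK -0.05 and PMAIP1 -0.56. With baicalein at 10 µM they were BCL2 -0.08, BCL2L1 -0.37, BCL2L2 0.42, MCL1 0.35, BAK1 0.03, BID 0.13, BCL2L11 0.15, BMF -0.22, HRK -0.20 and PMAIP1 0.05.

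At 20 µM genistein changed 2 members and baicalein 7. Genistein raised HRK 2.702-fold and lowered BMF 1.57-fold. Baicalein raised HRK 5.72-fold, PMAIP1 5.14-fold, MCL1 3.32-fold and BCL2 1.92-fold, and lowered BMF 2.696-fold, BCL2L1 2.15-fold and BID 1.42-fold. With genistein 1 member was higher and 1 lower, beside 16.4% of all genes called (8.31% higher and 8.12% lower). With baicalein 4 were higher and 3 lower, beside 57.2% of all genes (29.4% and 27.8%). These counts are read against that background and are no result particular to the members. Values in parentheses below are log2 fold changes ± SE. The medians over all genes were 0.05 and 0.04 log2 units. The drug comparisons share the untreated libraries.

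**Figure D2:**
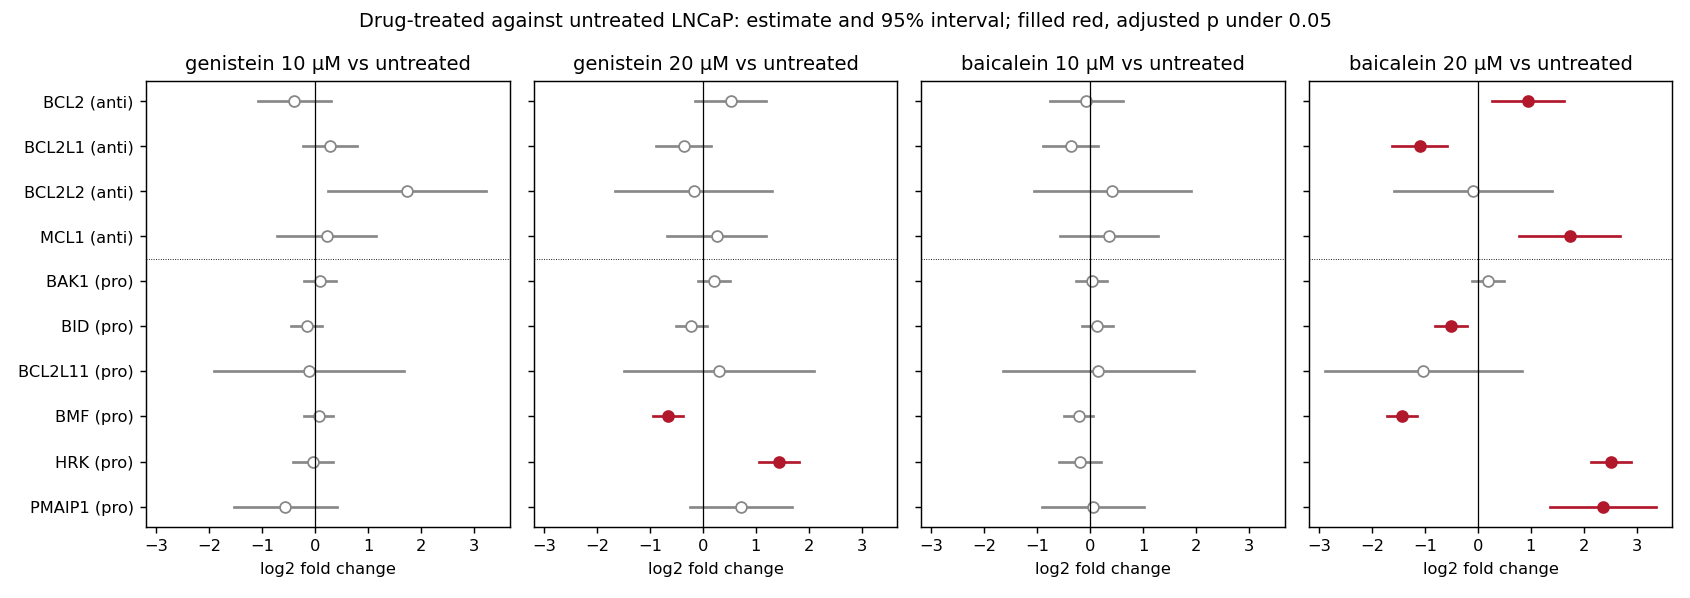
Log2 fold change over untreated LNCaP with its 95% interval for each member, 1 panel per drug and dose; filled red marks an adjusted p under 0.05. HRK and BMF pass with both drugs at 20 µM, and 7 members pass with baicalein at 20 µM.

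The anti-apoptotic members split with baicalein at 20 µM. BCL2 had 18.4, 10.04 and 14.2 CPM with baicalein at 20 µM, against 8.20, 6.55 and 8.05 CPM in untreated cells (0.94 ± 0.31, adjusted p 0.0202). No libraries overlapped, but the call was lost without baicalein replicate 1 (adjusted p 0.0931) or untreated replicate 2 or 3 (adjusted p 0.0829 and 0.0506), and with library totals only or no filter on low counts (adjusted p 0.0636 and 0.0593). BCL2L1, which encodes BCL-XL, had 45.3, 42.0 and 25.04 CPM, against 64.8, 108 and 75.7 CPM in untreated cells (-1.10 ± 0.24, adjusted p 0.00174), again without overlap. MCL1, a short-lived protein that PMAIP1 binds, had 818, 314 and 888 CPM, against 242, 194 and 189 CPM in untreated cells (1.73 ± 0.44, adjusted p 0.00464). All 3 baicalein libraries exceeded the untreated ones, although replicate 2 stood well below the other two. BCL2L2 had 6.95 to 23.7 CPM, against 9.71 to 21.2 CPM in untreated cells, and was not called (-0.09 ± 0.69, adjusted p 0.917).

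None of the 4 was called with genistein at 20 µM. MCL1 had 136, 195 and 385 CPM and lay on both sides of the untreated libraries (0.26 ± 0.43, adjusted p 0.734). BCL2 (0.52 ± 0.31, adjusted p 0.283), BCL2L1 (-0.36 ± 0.24, adjusted p 0.338) and BCL2L2 (-0.18 ± 0.68, adjusted p 0.897) also overlapped untreated cells. At an unadjusted p under 0.05 the count was likewise 0 of these 4, beside 5170 of 16985 genes.

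BAK1, a pore-forming effector, had 26.6, 23.1 and 23.7 CPM with genistein at 20 µM and 21.5, 29.97 and 21.6 CPM with baicalein at 20 µM, against 23.4, 21.7 and 20.7 CPM in untreated cells. The groups overlapped, and the 95% intervals ran from -0.08 to 0.51 log2 units with genistein and from -0.11 to 0.49 with baicalein. BID, which caspase-8 cleaves to link death receptors to mitochondria, had 7.80, 6.24 and 7.65 CPM with genistein at 20 µM and 5.37, 6.03 and 6.64 CPM with baicalein at 20 µM, against 7.84, 8.94 and 9.48 CPM in untreated cells. Neither drug's libraries overlapped the untreated ones, and only the baicalein change was called (-0.50 ± 0.14, adjusted p 0.00762; genistein -0.22 ± 0.14, adjusted p 0.314).

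HRK, a BH3-only protein that opposes BCL2L1, had 15.1, 12.7 and 13.5 CPM with genistein at 20 µM and 23.4, 34.7 and 30.3 CPM with baicalein at 20 µM, against 4.56, 5.69 and 5.63 CPM in untreated cells. All 6 treated libraries exceeded the untreated ones. At 10 µM it had 3.99 to 5.98 CPM with genistein and 4.16 to 4.74 CPM with baicalein. The log2 fold change at 20 µM was 1.43 ± 0.17 (adjusted p 0.000172) with genistein and 2.52 ± 0.18 (adjusted p 1.32e-07) with baicalein.

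BMF, a BH3-only protein held by dynein light chain, went the other way. It had 16.8, 15.7 and 15.7 CPM with genistein at 20 µM and 9.36, 9.16 and 10.02 CPM with baicalein at 20 µM, against 23.7, 29.1 and 26.3 CPM in untreated cells. All 6 treated libraries lay below the untreated ones. The log2 fold change was -0.66 ± 0.13 (adjusted p 0.0044) with genistein and -1.43 ± 0.13 (adjusted p 1.42e-06) with baicalein.

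PMAIP1 had 47.4, 59.98 and 65.9 CPM with genistein at 20 µM and 322, 95.5 and 126 CPM with baicalein at 20 µM, against 47.8, 24.1 and 37.1 CPM in untreated cells. The baicalein libraries did not overlap the untreated ones and the genistein libraries did. The baicalein log2 fold change was 2.36 ± 0.46 (adjusted p 0.000765). It was 1.64 without replicate 1, the highest library (adjusted p 0.00249), and genistein's was 0.73 ± 0.44 (adjusted p 0.298). BCL2L11, an activator of the effectors, had 35.7, 40.7 and 11.5 CPM with genistein at 20 µM and 7.69, 2.09 and 25.6 CPM with baicalein at 20 µM, against 44.1, 10.2 and 18.7 CPM in untreated cells. Both drugs overlapped untreated cells, at 0.31 ± 0.83 (adjusted p 0.846) with genistein and -1.03 ± 0.85 (adjusted p 0.323) with baicalein. The baicalein value was -2.29, adjusted p 0.0583 without baicalein replicate 3, and -0.27, adjusted p 0.824 without untreated replicate 1. With mitochondrially encoded genes left out, 7 members were again called with baicalein at 20 µM and 2 with genistein.

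The strand setting was not given, so reads of overlapping genes cannot be told apart. The antisense gene ABALON covers 43.0% of BCL2L1's exon bases and had at most 4 counts in a library. How reads in shared bases were counted is not known here, so that low count does not show that BCL2L1 lost no reads. If such reads were left out, the per-kb values of BCL2L1, which divide by all its exon bases, would be too low. The anti-apoptotic sums would then be too low as well, and the ratios of pro- to anti-apoptotic sums too high. The readthrough gene BCL2L2-PABPN1, with 118 to 632 counts, covers 19.4% of those of BCL2L2. MIR4435-2HG, on the opposite strand with 13 to 681 counts, covers 10.9% of those of BCL2L11.

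Spread within groups differed among the members. Averaged over the 5 LNCaP groups, the coefficient of variation was 70.2% for BCL2L11, against a median of 11.9% for genes within 2-fold of its level, and 58.8% for BCL2L2. It was 36.5% for PMAIP1, 34.4% for MCL1, 26.4% for BCL2 and 19.4% for BCL2L1. BMF at 8.82%, BID at 9.53%, BAK1 at 10.2% and HRK at 13.3% lay below the median of genes of like level.

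**Figure D3:**
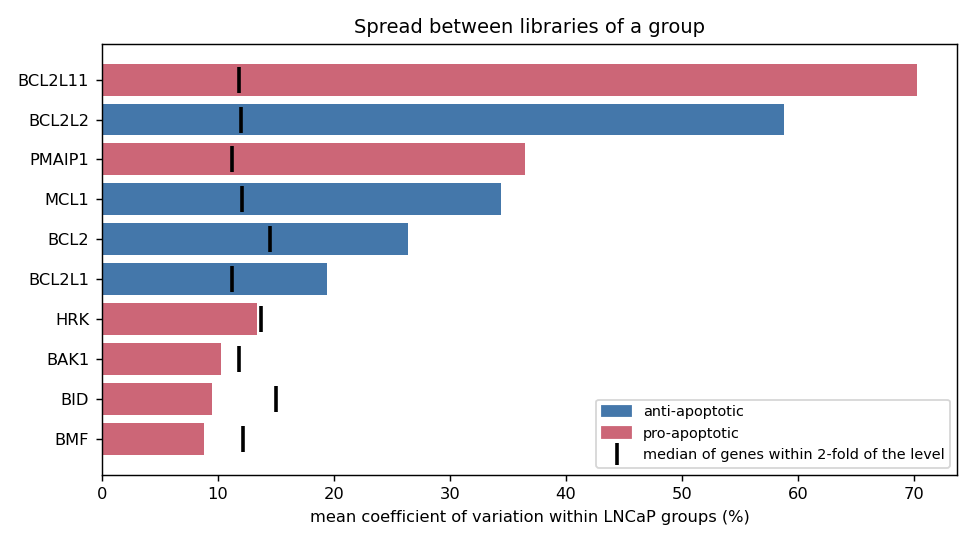
Mean within-group coefficient of variation (percent) over the 5 LNCaP groups, 1 bar per member, with a black mark at the median of genes within 2-fold of that member's level. BCL2L11 and BCL2L2 stand far above their marks, and BMF, BID, BAK1 and HRK below.

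The step from 10 to 20 µM was tested for each drug. With genistein HRK was higher (1.48 ± 0.18, adjusted p 0.000204) and BMF lower (-0.72 ± 0.13, adjusted p 0.00318) at 20 than at 10 µM, 2 of 10 members beside 13.2% of all genes (5.59% higher and 7.63% lower). An unadjusted p below 0.05 was reached by 6 members, beside 4884 of 16985 genes. The other 4 were BCL2 (0.92 ± 0.32, adjusted p 0.0747), BCL2L1 (-0.64 ± 0.24, adjusted p 0.0999), BCL2L2 (-1.90 ± 0.69, adjusted p 0.0911) and PMAIP1 (1.29 ± 0.45, adjusted p 0.0791). DESeq2 called 5 (BCL2, BCL2L2 and PMAIP1 too), and a fit of the compared groups alone 4 (BCL2L2 and PMAIP1 too), and BCL2 also passed with GC and length trends removed (0.91, adjusted p 0.0412). With baicalein 4 of 10 were higher and 3 lower, beside 54.4% (26.8% and 27.5%). HRK (2.71 ± 0.18, adjusted p 1.06e-07), PMAIP1 (2.31 ± 0.46, adjusted p 0.000972), MCL1 (1.38 ± 0.44, adjusted p 0.0171) and BCL2 (1.02 ± 0.32, adjusted p 0.0159) rose. BMF (-1.21 ± 0.13, adjusted p 6.74e-06), BID (-0.63 ± 0.14, adjusted p 0.00193) and BCL2L1 (-0.73 ± 0.24, adjusted p 0.0214) fell. BCL2L11 was called without 20 µM replicate 3 alone (-2.44, adjusted p 0.0495). Without 20 µM replicate 1 the PMAIP1 value was 1.59. The BCL2 call was lost without 10 µM or 20 µM replicate 1 (adjusted p 0.0586 and 0.072), and the BCL2L1 call without 10 µM replicate 1 or 20 µM replicate 3 (adjusted p 0.0615 and 0.0835). The MCL1 call was lost without 10 µM replicate 1 or 2 (adjusted p 0.0594 and 0.0516) or 20 µM replicate 1 or 3 (adjusted p 0.0548 and 0.0664), and with no filter on low counts (adjusted p 0.0537). In a fit of the compared groups alone the BCL2L1 call was lost too (adjusted p 0.062).

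Genistein and baicalein, an isoflavone and a flavone whose phenyl groups sit on different carbons of the central ring, were compared at 2 matched doses. At 10 µM 0 of 10 members differed, beside 0.00589% of all genes, and DESeq2 also called 0. An unadjusted p below 0.05 was reached by 2 members, beside 1312 of 16985 genes. They were BCL2L1 (interval 0.13 to 1.17 log2 units) and BMF (interval 0.01 to 0.56). At 20 µM 2 of 10 were higher and 3 lower with genistein than with baicalein, beside 48.7% of all genes (25.4% and 23.3%). BMF (0.78 ± 0.13, adjusted p 0.00036) and BCL2L1 (0.74 ± 0.24, adjusted p 0.0224) were higher, and HRK (-1.08 ± 0.17, adjusted p 0.000168), PMAIP1 (-1.64 ± 0.45, adjusted p 0.00919) and MCL1 (-1.47 ± 0.44, adjusted p 0.0139) lower. The MCL1 libraries overlapped between the drugs, and those of the other 4 did not. The share of all genes without overlap between the drugs was not computed. For BAK1 the interval of the difference was -0.27 to 0.32 log2 units, for BCL2 -1.09 to 0.25, for BID -0.02 to 0.59, for BCL2L2 -1.58 to 1.42 and for BCL2L11 -0.53 to 3.20.

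Several of these calls at 20 µM rested on single libraries. PMAIP1 was -0.91 and not called without baicalein replicate 1 (adjusted p 0.0597). MCL1 was not called without genistein replicate 1 or 2 or baicalein replicate 3 (adjusted p 0.0504, 0.055 and 0.0551). BCL2L1 was not called without genistein replicate 1 or baicalein replicate 3 (adjusted p 0.0704 and 0.086). In a fit of the compared groups alone MCL1 and BCL2L1 both lost their calls (adjusted p 0.0593 and 0.0632), as did MCL1 with no filter (adjusted p 0.0524) and BCL2L1 with GC and length trends removed (adjusted p 0.0579). BID was called with library totals only (adjusted p 0.0472) and without genistein replicate 2 (0.39, adjusted p 0.0478) and BCL2L11 without baicalein replicate 3 (2.60, adjusted p 0.044). The difference between the drugs' dose steps was called for HRK (-1.23 ± 0.25, adjusted p 0.0022) and BID (0.58 ± 0.20, adjusted p 0.0382), 1 lower and 1 higher beside 32.8% of all genes (15.5% lower and 17.3% higher). The HRK step was smaller with genistein. Of the uncalled members, BCL2L2 passed without baicalein 10 µM replicate 1 (-2.72, adjusted p 0.0207) and BMF without baicalein 10 µM replicate 3 (0.57, adjusted p 0.0386). MCL1 passed without genistein 20 µM replicate 3 (-1.88, adjusted p 0.0265) or baicalein 20 µM replicate 2 (-1.68, adjusted p 0.0309). MCL1 (-1.53, adjusted p 0.0472) and PMAIP1 (-1.25, adjusted p 0.0374) passed with GC and length trends removed. The BID call was lost on leaving out any 1 of 8 libraries, replicates 1 and 3 of genistein at each dose and replicates 1 and 2 of baicalein at each dose, with adjusted p from 0.0515 to 0.0871. It was also lost under 6 other alternatives, among them DESeq2 (adjusted p 0.0736).

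Untreated PC-3 differed from untreated LNCaP in 7 members. PMAIP1 was 6.72-fold, BAK1 4.75-fold, BCL2L1 3.20-fold and BID 2.55-fold higher in PC-3, and HRK was 3.98-fold, BCL2 2.07-fold and BMF 1.46-fold lower. These 4 higher and 3 lower of 10 stood beside 74.9% of 17259 genes called (37.0% higher and 37.9% lower), a share near that of the members. The libraries of the lines did not overlap for any of the 7. The 74.9% is a share of genes called, and the share of all genes without overlap was not computed.

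Among the anti-apoptotic members, BCL2 had 5.33, 3.66 and 2.15 CPM in PC-3, against 8.20, 6.55 and 8.05 CPM in LNCaP (-1.05 ± 0.31, adjusted p 0.0183). Its call was lost without PC-3 replicate 2 (adjusted p 0.0537) or LNCaP replicate 1 or 3 (adjusted p 0.051 and 0.0504), and with GC and length trends removed (-0.65, adjusted p 0.0794). BCL2L1 had 277, 246 and 284 CPM in PC-3, against 64.8, 108 and 75.7 CPM in LNCaP (1.68 ± 0.20, adjusted p 0.00025). Every PC-3 library was above every LNCaP library for BCL2L1 and below for BCL2. MCL1 had 419, 185 and 151 CPM in PC-3, against 242, 194 and 189 CPM in LNCaP, and was not called (0.26 ± 0.39, adjusted p 0.567). BCL2L2 had 6.26, 8.20 and 42.1 CPM in PC-3, against 21.2, 13.2 and 9.71 CPM in LNCaP, and was not called (0.32 ± 0.73, adjusted p 0.702). Each had 1 PC-3 library far above the other two, and overlapped LNCaP.

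Among the pro-apoptotic members, BAK1 had 95.3, 109.7 and 112 CPM in PC-3, against 23.4, 21.7 and 20.7 CPM in LNCaP (2.25 ± 0.11, adjusted p 3.65e-06). BID had 20.8, 21.7 and 25.5 CPM in PC-3, against 7.84, 8.94 and 9.48 CPM in LNCaP (1.35 ± 0.14, adjusted p 0.000101). Both effector and activator were thus higher in every PC-3 library. PMAIP1 had 277, 260.1 and 205 CPM in PC-3, against 47.8, 24.1 and 37.1 CPM in LNCaP (2.75 ± 0.27, adjusted p 0.000108). HRK had 1.39, 1.19 and 1.47 CPM in PC-3, against 4.56, 5.69 and 5.63 CPM in LNCaP (-1.99 ± 0.21, adjusted p 0.000109). BMF had 15.4, 20.7 and 18.9 CPM in PC-3, against 23.7, 29.1 and 26.3 CPM in LNCaP (-0.54 ± 0.14, adjusted p 0.0104). HRK and BMF were therefore lower in every PC-3 library. BCL2L11 had 9.51, 11.1 and 2.26 CPM in PC-3, against 44.1, 10.2 and 18.7 CPM in LNCaP, and missed the threshold (-1.68 ± 0.69, adjusted p 0.0614). It passed without LNCaP replicate 2 (-2.06, adjusted p 0.031) and by DESeq2 (-1.78, adjusted p 0.0161) or library totals only (-1.96, adjusted p 0.0377). Without LNCaP replicate 1 it was -0.93 (adjusted p 0.216).

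**Figure D4:**
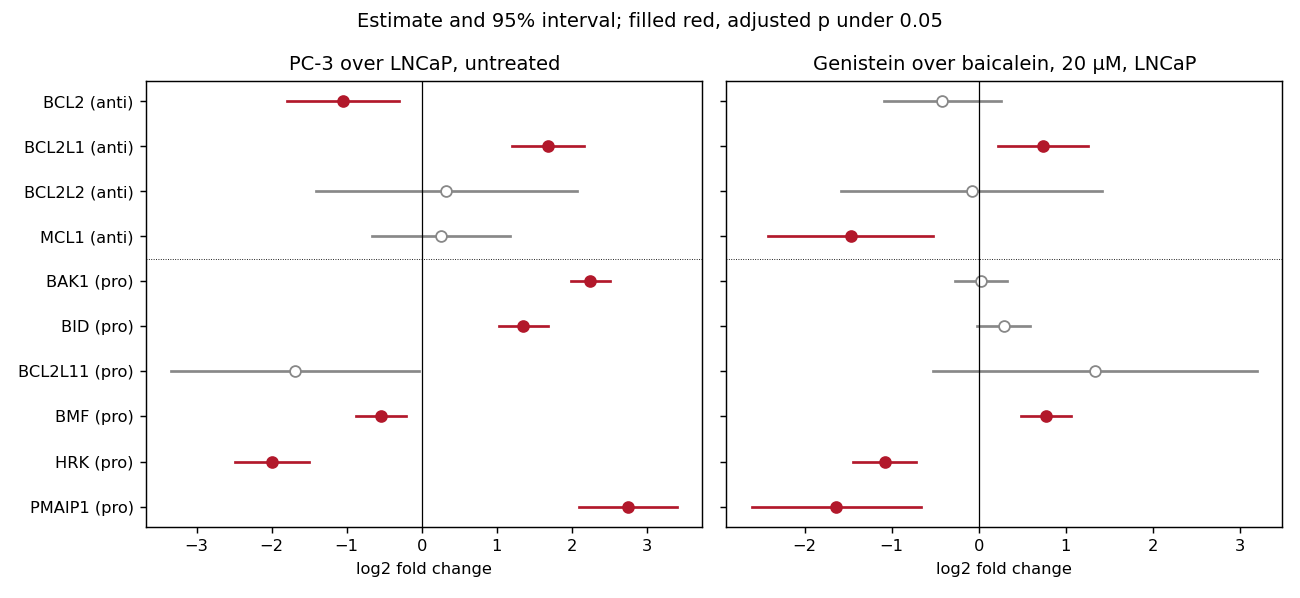
Log2 fold change with its 95% interval for each member, PC-3 over LNCaP and genistein over baicalein at 20 µM; filled red marks an adjusted p under 0.05. PMAIP1 and BAK1 are highest in PC-3, and PMAIP1, MCL1 and HRK are lower with genistein than with baicalein.

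Pro- and anti-apoptotic members were weighed by their sums per kb of exons, as a description with no test. The sums hold only the 10 members. In untreated LNCaP, the pro-apoptotic family genes BAD, BOK, BIK, BAX and BBC3 had means of 22.4, 13.3, 11.1, 10.3 and 1.35 CPM per kb. With genistein at 20 µM the means were 26.6, 9.94, 9.27, 13.1 and 3.36 CPM per kb. With baicalein at 20 µM they were 40.2, 5.33, 18.2, 22.9 and 33.4 CPM per kb, and in PC-3 148, 24.8, 5.90, 24.0 and 1.46 CPM per kb. These genes were left out, and their levels differed between groups. The ratios and their overlap therefore hold only for the 10 members and do not stand for the whole family. The ratio of the pro-apoptotic to the anti-apoptotic sum was 0.562, 0.375 and 0.529 in the untreated LNCaP libraries, 0.291, 0.278 and 0.466 with genistein at 10 µM and 0.849, 0.747 and 0.436 with genistein at 20 µM. With baicalein it was 0.421, 0.511 and 0.407 at 10 µM and 0.776, 0.738 and 0.364 at 20 µM. Each drug group overlapped the untreated libraries. In PC-3 the ratio over all 10 members was 0.972, 1.49 and 1.17, above every LNCaP library. From sums of CPM not divided by length, the PC-3 ratios were 0.593, 0.960 and 0.762, and replicate 1 then lay below genistein 20 µM replicate 1 at 0.684.

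With baicalein at 20 µM both sums were higher in all 3 libraries. The pro-apoptotic sum was 161, 64.7 and 77.8 CPM per kb with baicalein at 20 µM, against 45.4, 30.3 and 36.6 in untreated LNCaP. The anti-apoptotic sum was 208, 87.6 and 214 CPM per kb with baicalein at 20 µM, against 80.7, 80.8 and 69.2 in untreated LNCaP. MCL1 made up 89.0 ± 6.63% of the anti-apoptotic sum with baicalein at 20 µM, against 62.1 ± 6.82% in untreated LNCaP (SD, n = 3), and 38.3 ± 13.4% in PC-3. PMAIP1 made up 76.0 ± 12.02% of the pro-apoptotic sum with baicalein at 20 µM, against 42.7 ± 6.28% in untreated LNCaP, and 65.5 ± 5.05% in PC-3. A single member thus carried most of each sum with baicalein. Without MCL1 the ratio was 7.72, 4.09 and 7.47 with baicalein at 20 µM and 2.01, 2.28 and 2.10 with genistein at 20 µM, against 1.79, 0.835 and 1.41 in untreated LNCaP. Without PMAIP1 it was 0.0828, 0.251 and 0.0999 with baicalein at 20 µM and 0.454, 0.342 and 0.171 with genistein at 20 µM, against 0.297, 0.242 and 0.288 in untreated LNCaP. So without MCL1 all 3 baicalein libraries lay above the untreated ones, and without PMAIP1 the groups overlapped, with 2 of 3 baicalein libraries below all untreated ones. In PC-3 the ratio was 2.06, 2.31 and 1.59 without MCL1 and 0.288, 0.507 and 0.463 without PMAIP1. Either way PC-3 overlapped untreated LNCaP.

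**Figure D5:**
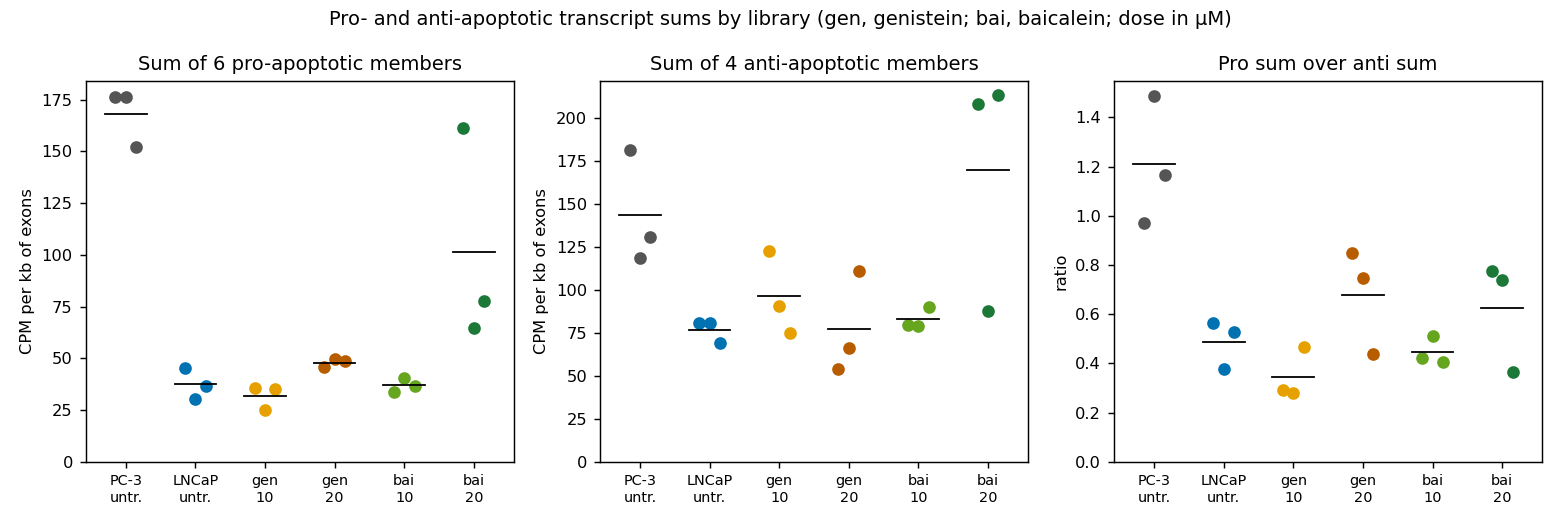
Sums of pro-apoptotic and anti-apoptotic members in CPM per kb of exons, and their ratio, for every library, with lines at group means. Both sums are higher in the 3 libraries with baicalein at 20 µM than in untreated LNCaP, and the 3 PC-3 libraries have the highest ratios.

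Other genes of the pathway were counted in 5 lists. Of all genes, 57.2% were called with baicalein at 20 µM (29.4% higher and 27.8% lower) and 16.4% with genistein at 20 µM (8.31% higher and 8.12% lower), and no list was tested against these shares. Other BCL2 family genes had 8 higher and 1 lower of 11 tested (median 0.75 log2 units) with baicalein at 20 µM and 1 higher and 1 lower of 11 tested (median 0.30 log2 units) with genistein at 20 µM. BBC3 (PUMA), a BH3-only protein, had 106 ± 19.6 CPM with baicalein at 20 µM and 10.7 ± 0.844 CPM with genistein at 20 µM, against 4.30 ± 0.317 CPM in untreated cells (SD, n = 3). Its log2 fold change was 4.66 ± 0.20 (adjusted p 2.14e-09) with baicalein and 1.37 ± 0.18 (adjusted p 0.000353) with genistein. The pore-forming effector BAX rose with baicalein (1.19 ± 0.13) and its relative BOK fell (-1.28 ± 0.15). BNIPL fell with genistein (-1.29 ± 0.33) at a low level, 0.480 ± 0.0547 CPM at 20 µM against 1.25 ± 0.277 CPM in untreated cells.

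Apoptosome, caspase and IAP genes had 7 higher and 4 lower of 18 tested (median 0.33 log2 units) with baicalein at 20 µM, a share near the 57.2% of all genes. With genistein at 20 µM edgeR called 0 of 18 and DESeq2 also 0. An unadjusted p below 0.05 was reached by 1 of the 18, beside 5170 of 16985 genes. With baicalein BIRC3, an IAP, rose (1.82 ± 0.43). BIRC5 (survivin) and AIFM1 fell (-1.68 ± 0.34 and -0.86 ± 0.12). Death receptor genes had 7 higher and 2 lower of 11 tested (median 0.60 log2 units) with baicalein and 1 higher and 0 lower of 11 tested (median 0.19 log2 units) with genistein. TNFRSF10B, a receptor for TRAIL, had 596 ± 79.2 CPM with baicalein at 20 µM, against 138 ± 10.1 CPM in untreated cells (2.15 ± 0.12, adjusted p 1.59e-08). TNFRSF21 rose with baicalein (0.90 ± 0.10) and genistein (0.63 ± 0.10).

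Partners and turnover factors had 2 higher and 7 lower of 15 tested (median -0.25 log2 units) with baicalein at 20 µM, also near the 57.2% of all genes, and 0 higher and 2 lower of 15 tested (median -0.01 log2 units) with genistein at 20 µM. HUWE1, a ubiquitin ligase for MCL1, fell with baicalein (-1.32 ± 0.12) and genistein (-0.55 ± 0.12), as did DYNLL2, a dynein light chain that binds BMF (-0.97 ± 0.12 and -0.38 ± 0.11). FBXW7, a further ubiquitin ligase component for MCL1, and the chaperone partner BAG3 rose with baicalein (1.97 ± 0.19 and 1.89 ± 0.13). Transcription factors had 7 higher and 4 lower of 14 tested (median 0.49 log2 units) with baicalein and 2 higher and 3 lower of 14 tested (median 0.34 log2 units) with genistein, where DESeq2 called 4 higher and 4 lower. DDIT3 (CHOP), a factor of the stress response, had 778 ± 143 CPM with baicalein at 20 µM and 209 ± 22.8 CPM with genistein at 20 µM, against 71.1 ± 4.04 CPM in untreated cells. Its log2 fold change was 3.49 ± 0.15 with baicalein and 1.61 ± 0.14 with genistein. E2F1 fell with baicalein (-1.42 ± 0.14) and genistein (-0.77 ± 0.14).

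In PC-3 over LNCaP, the lists stood beside 74.9% of all genes called (37.0% higher and 37.9% lower). Other BCL2 family genes had 6 higher and 3 lower of 11 tested (median 0.87 log2 units), with BCL2L12 at 2.74 ± 0.16 and the BH3-only gene BAD at 2.71 ± 0.19. Apoptosome, caspase and IAP genes had 7 higher and 3 lower of 18 tested (median 0.58 log2 units), with BIRC5 at 3.34 ± 0.15 and BIRC6 at -1.73 ± 0.12. Death receptor genes had 8 higher and 2 lower of 11 tested (median 0.88 log2 units), with TNFRSF21 at 2.63 ± 0.10. Partners and turnover factors had 5 higher and 8 lower of 15 tested (median -0.42 log2 units), with VDAC2, which binds BAK1, at 2.13 ± 0.15 and HUWE1 at -1.71 ± 0.14. Transcription factors had 3 higher and 7 lower of 14 tested (median -0.50 log2 units), with E2F1 at 1.79 ± 0.10. The median over all genes was -0.02 log2 units.

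Over the 15 LNCaP libraries, the genes whose log2 CPM was most like that of a member, by Pearson's r among 12624 protein-coding genes, were UBXN2B (0.97), C9orf72 (0.97) and SPTSSA (0.97) for BCL2. For PMAIP1 they were HBP1 (0.97), PPP2CB (0.97) and ZDHHC13 (0.97). For MCL1 they were PWWP2A (0.93), BTBD7 (0.92) and MORC3 (0.91). For BCL2L11 they were LCLAT1 (0.85), GIMAP6 (0.81) and ZBTB25 (0.78). These libraries share groups and scaling, so the values are a description.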

How the data were processed

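The deposited counts per gene and library are whole numbers. Per the submitters' processing notes, the authors used STAR 2.7.6a, featureCounts 1.6.4, fastp and DESeq2 1.20.0 with GRCh38, with no roles stated. Strand setting, multi-mapping and annotation release are not given in the sources used here, and the NEBNext Ultra kit does not mark strand. The 18 FPKM columns and the authors' coded comparisons were not used. Counts were tested with edgeR 4.0.16 (R 4.3.3): quasi-likelihood F test, TMM factors, its filter on low counts, robust estimation. The 15 LNCaP libraries formed 1 fit (16985 genes) and the 6 untreated libraries another (17259 genes), and all 10 members passed both filters. The SE was the absolute log2 fold change before edgeR's prior count was added, divided by the root of F. The printed log2 fold changes and the centres of the intervals include that prior count. GENCODE 29 gave exon lengths and matched 58228 identifiers. Members and lists were chosen with earlier results of these data known. The text names all members, from each list up to 4 genes with the smallest adjusted p per main comparison, and the 3 genes most like each of 4 members, and some list genes are not reported here. Alternatives were DESeq2 1.42.0, RLE factors, library totals, no filter, no mitochondrially encoded genes, only the compared groups, a replicate block, leaving out each library, and, chosen after seeing the data, GC and length correction and a ratio without PMAIP1. On simulated data with the genistein 20 µM and PC-3 designs, 69% and 70% of genes changed by 1 log2 unit were called (16614 and 16917 genes tested, 100 changed at each size), and 100% of those changed by 2. The share called at each member's own spread was not tested. Averaged over the 5 LNCaP groups, the members' coefficient of variation ran from 8.82% (BMF) to 70.2% (BCL2L11). The shares of 69%, 70% and 100% are therefore not values for single members. Libraries of a group differed beyond sampling noise (chi-square per degree of freedom 12.01 to 97.6).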

Additional observations from a re-analysis of the deposited data

Results flagged for a closer look

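The genistein dose step (20 over 10 µM) minus the baicalein dose step differed from 0 for HRK, at -1.23 log2 units, and the difference was called in each of the 19 alternatives tried. The same difference for BID was 0.58 log2 units and was called in 5 of 19 alternatives.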

How the results depend on the processing

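Of 32 called values over all 10 comparisons, 23 stayed called in every alternative, 9 lost the call in some and 0 changed sign. Of 49 uncalled values outside the dose steps and their difference, 22 changed sign in some alternative and 3 became called. Of 19 uncalled values of the dose steps and their difference, 9 changed sign in some alternative and 8 became called. The genistein dose step had 2 members called, against 5 by DESeq2 and 4 with only the compared groups. Genistein over baicalein at 20 µM had 5, against 3 with only the compared groups. The difference of dose steps had 2, against 1 by DESeq2, with RLE factors, with library totals, with no filter and with the replicate block. Leaving out 1 library gave 4 to 7 for the baicalein dose step, 3 to 5 for genistein over baicalein at 20 µM and 1 to 3 for the difference of dose steps. The replicate block changed no other count. Replicate numbers did not pair the samples, with same-number correlations from -0.58 to 0.55 and 10 of 33 over 0.1. Some libraries with different numbers deviated together across groups, such as baicalein 10 µM replicate 1 and baicalein 20 µM replicate 2 (0.65). The fits did not model such shared deviations. The causes were not tested.

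Outside the dose steps, uncalled values changed sign as follows, in log2 units. With DESeq2 the value became -0.026 for BAK1 (baicalein 10 µM over untreated). With GC and length correction the value became 0.0073 for BCL2 (baicalein 10 µM over untreated), -0.055 for PMAIP1 (baicalein 10 µM over untreated), 0.12 for BCL2L2 (baicalein 20 µM over untreated), -0.012 for BAK1 (genistein over baicalein at 10 µM) and -0.049 for BAK1 (genistein over baicalein at 20 µM). With RLE size factors the value became -0.0033 for BAK1 (baicalein 10 µM over untreated) and -0.017 for BAK1 (genistein over baicalein at 20 µM). With library totals only the value became -0.041 for BAK1 (baicalein 10 µM over untreated), -0.026 for PMAIP1 (baicalein 10 µM over untreated), -0.096 for BAK1 (baicalein 20 µM over untreated), 0.092 for BCL2L2 (genistein over baicalein at 20 µM) and -0.038 for MCL1 (PC-3 over LNCaP). With no filter the value became -0.011 for BAK1 (genistein 10 µM over untreated), -0.035 for BMF (genistein 10 µM over untreated), -0.063 for BAK1 (baicalein 10 µM over untreated) and -0.026 for PMAIP1 (baicalein 10 µM over untreated). With only the compared groups the value became -0.039 for BAK1 (genistein over baicalein at 20 µM). With the replicate block the value became 0.11 for BCL2L2 (genistein 20 µM over untreated), 0.30 for BCL2L2 (genistein over baicalein at 20 µM) and -0.12 for BCL2L2 (PC-3 over LNCaP). With mitochondrially encoded genes left out the value became -0.017 for BAK1 (baicalein 10 µM over untreated). The ranges over left-out libraries for values that changed sign are next. For genistein 10 µM over untreated they were MCL1 -0.062 to 0.46, BAK1 -0.0031 to 0.17, BCL2L11 -0.91 to 0.64 and HRK -0.20 to 0.10. For baicalein 10 µM over untreated they were BCL2 -0.28 to 0.20, BCL2L2 -0.93 to 0.86, BAK1 -0.059 to 0.082, BCL2L11 -0.25 to 0.92 and PMAIP1 -0.21 to 0.31. For genistein 20 µM over untreated they were BCL2L2 -0.60 to 0.20, MCL1 -0.29 to 0.49 and BCL2L11 -0.081 to 1.07. For baicalein 20 µM over untreated they were BCL2L2 -0.81 to 0.27. For genistein over baicalein at 10 µM they were MCL1 -0.42 to 0.11 and BCL2L11 -1.06 to 0.18. For genistein over baicalein at 20 µM they were BCL2L2 -0.50 to 0.63 and BAK1 -0.057 to 0.19. For PC-3 over LNCaP they were BCL2L2 -1.02 to 0.76 and MCL1 -0.31 to 0.53.

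Without MCL1 the mean pro to anti ratio was 0.767 and 2.13 with genistein at 10 and 20 µM, 1.63 and 6.43 with baicalein at 10 and 20 µM, 1.35 in untreated LNCaP and 1.99 in PC-3. Without PMAIP1 it was 0.228 and 0.323 with genistein, 0.250 and 0.144 with baicalein, 0.276 in untreated LNCaP and 0.419 in PC-3. From sums of CPM it was 0.291 and 0.515 with genistein, 0.350 and 0.380 with baicalein, 0.392 in untreated LNCaP and 0.772 in PC-3, so on that scale the mean with baicalein at 20 µM lay below that of untreated LNCaP, by less than 1 SD.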
